A study of Homo sapiens with 6 samples.

Results

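The 10 MAP kinase phosphatases of the dual-specificity phosphatase (DUSP) family were examined in HMLE, a cell line derived from human breast epithelium and immortalised in culture. Members were the probe sets annotated to 1 symbol among DUSP1, DUSP2, DUSP4, DUSP5, DUSP6, DUSP7, DUSP8, DUSP9, DUSP10 and DUSP16, which gave 22 probe sets of 10 genes among 41091 probe sets of 19775 genes. The Twist line carried the pBabe-Twist retrovirus and was treated with the solvent DMSO or with the compound Cmp302 at 5 µM or 10 µM. The control line carried the pBabe-shGFP retrovirus, a hairpin against GFP, and received the same 3 treatments. All cells grew in medium with EGF, insulin and hydrocortisone. Each of the 6 groups had 1 array, so that differences between 2 arrays are without a replicate check and precision is limited by the array number. Doses are those of the titles, with 6 h of treatment, but the source names state 2 µM with times of 4 h and 8 h. The levels were therefore coded 0, 1 and 2.

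MAP kinase phosphatases remove phosphate from both the threonine and the tyrosine of the activation loop of ERK, JNK and p38, and so switch these kinases off. Most are themselves transcribed in response to MAP kinase signalling, which makes them feedback inhibitors, and DUSP6 mRNA is widely read as a sign of ERK output. The family divides into nuclear inducible enzymes (DUSP1, DUSP2, DUSP4 and DUSP5), cytoplasmic enzymes that prefer ERK (DUSP6, DUSP7 and DUSP9) and enzymes that prefer JNK and p38 (DUSP8, DUSP10 and DUSP16). In mammary epithelium the EGF receptor feeds ERK through RAS. Twist, a transcription factor, sets off epithelial-mesenchymal transition (EMT), in which epithelial cells lose E-cadherin and gain mesenchymal genes.

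Signals are on the log2 scale, and each gene was read by its brightest probe set unless another is named. A floor was set at 3.71 log2 units, the median of all values, and signals below it have no order. Of the 10 members, 7 lay above the floor on all 6 arrays and all 10 on at least 1, whereas 2 of the 22 probe sets lay below it on all arrays. TWIST1 had 11.57, 11.96 and 11.35 in the Twist line under DMSO, 5 µM and 10 µM, against 10.70, 10.51 and 10.48 in the control line (line effect 1.06 ± 0.21, SE, adjusted p = 0.0167, limma). Epithelial markers matched the labels in that all 4 measured (CDH1, EPCAM, KRT5 and KRT14) were above the floor in the control line, and 3 of the 4 were below it on all Twist-line arrays. All 5 mesenchymal markers were above the floor in both lines. The limma line effect called 4 of them higher in the Twist line (VIM, CDH2, ZEB1 and ZEB2) and not FN1, where 13.7% of 12478 genes were called higher. The summed mesenchymal marker signal was 15.18 to 15.3 log2 units in the Twist line and 13.75 to 13.87 in the control line. Of other cell types, 1 of 3 endothelial markers was measured, PECAM1, at 7.20 to 7.64 in the Twist line and 3.80 to 4.05 in the control line, with CDH5 and VWF below the floor on every array. The summed endothelial marker signal was 7.33 to 7.74 log2 units in the Twist line and 4.83 to 4.91 in the control line. Blood markers showed 1 of 4 (CD14) and fat cell markers 0 of 2 above the floor in each line, and the part of these in the results was not tested. In bulk RNA, fewer cells of a type and less RNA per cell cannot be told apart.

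The contrast between 3' and middle control probe sets of GAPDH and ACTB, a measure of RNA integrity and labelling, stood at 0.95 on the Twist-line DMSO array, 0.36 at 5 µM and 0.45 at 10 µM, in log2 units. In the control line it was 0.28, 0.45 and 0.84. The highest of the 6 was thus the Twist DMSO array, with which the Cmp302 arrays of the Twist line are compared.

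DUSP1 was higher and DUSP9 and DUSP10 were lower in the Twist line than in the control line. Under DMSO, 1 of 10 measured members was past 2-fold higher in the Twist line (DUSP1) and 3 were past 2-fold lower (DUSP9, DUSP10 and DUSP16). Over all 12510 genes measured in that comparison 11.9% were higher and 13.5% lower. The median difference of the members was -0.15 log2 units, against 0.0 over all genes. In a limma fit over the 6 arrays with treatment as a factor, DUSP1 and DUSP8 were higher in the Twist line and DUSP9 and DUSP10 lower, at a Benjamini-Hochberg adjusted p of 0.05 over 12478 genes. DUSP9 entered that fit through its control-line arrays alone, with all its Twist-line values set to the floor. That fit called 13.7% of all genes higher and 14.9% lower. It has 2 residual degrees of freedom, and its error is the variation of the line difference over the treatments, not the spread of replicates. The 3 Twist-line signals did not overlap with the 3 control-line signals for 8 of 10 members, a pattern that 49.8% of all tested genes showed. In a fit over 24611 probe sets, the line effect was called higher for 3 of 20 member probe sets and lower for 5. That fit called 27.6% of all probe sets in either direction.

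**Figure D1:**
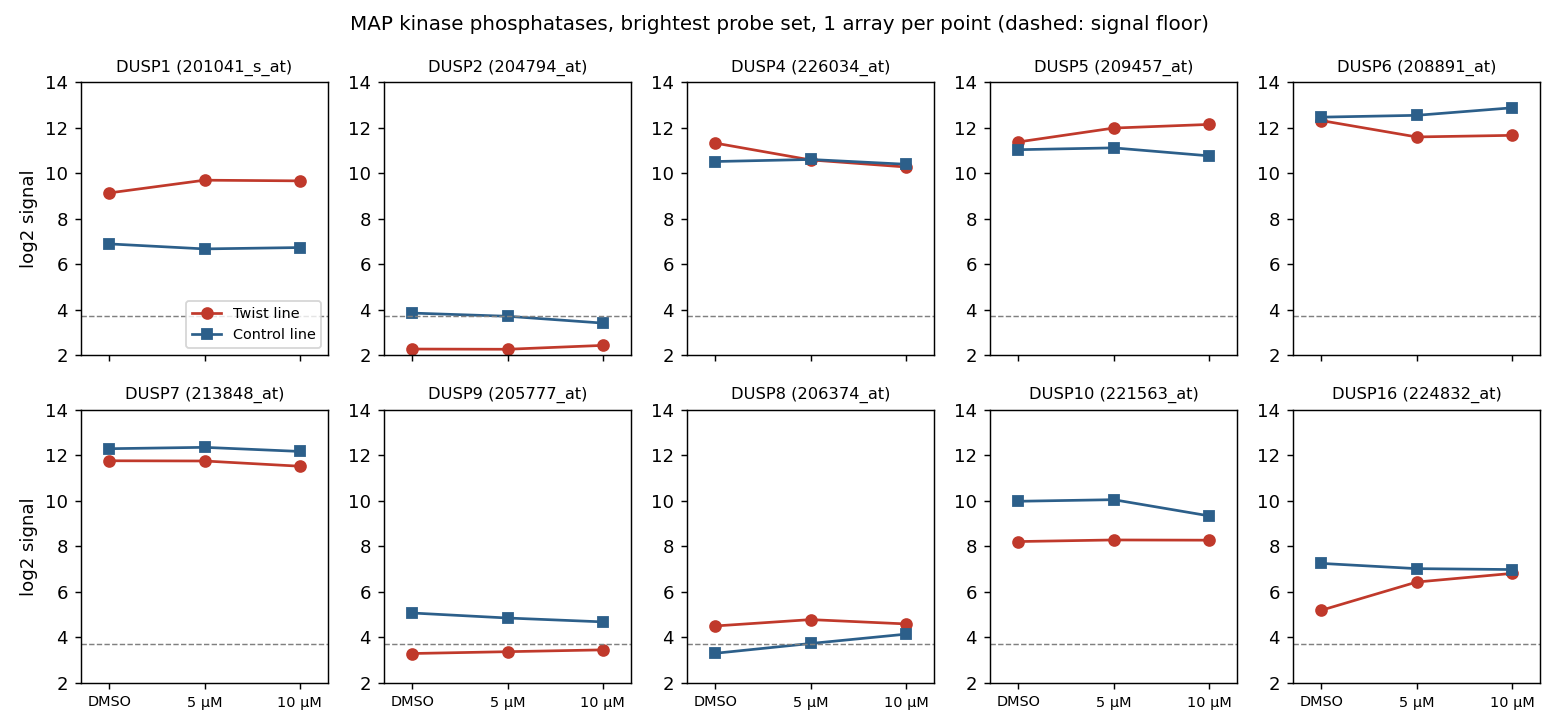
Log2 signal of the brightest probe set of each MAP kinase phosphatase (vertical axis) by treatment (horizontal axis), with 1 array per point, the Twist line as red circles, the control line as blue squares and the signal floor of 3.71 as a dashed line. DUSP1 lies above the control line throughout and DUSP10 below it, while DUSP16 starts at 5.19 in the Twist line under DMSO and reaches 6.81 at 10 µM, near the control-line value of 6.98.

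Among the nuclear inducible enzymes, DUSP1, an immediate early gene whose product acts on p38, JNK and ERK, gave 9.14, 9.70 and 9.67 log2 units in the Twist line under DMSO, 5 µM and 10 µM. In the control line its signals were 6.90, 6.68 and 6.74. All 3 Twist-line arrays were thus far above all 3 control-line arrays, by 2.24, 3.01 and 2.93 log2 units, or 4.73-fold, 8.08-fold and 7.60-fold. The limma estimate was 2.73 ± 0.25 (SE, adjusted p = 0.000902), and it was 0.62 (adjusted p = 0.12) where the median over probe sets was read in place of the brightest. The other probe sets of DUSP1 did not carry this difference to the same degree. Probe set 201044_x_at had 4.07, 4.05 and 4.21 in the Twist line and 4.13, 4.23 and 3.97 in the control line, values near the floor that overlapped. Probe set 226578_s_at had 3.61, below the floor, then 4.95 and 5.18 in the Twist line, and lay below the floor on all control-line arrays.

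DUSP5, a nuclear phosphatase specific for ERK, had 11.38, 11.99 and 12.15 in the Twist line and 11.04, 11.12 and 10.77 in the control line. Its lines did not overlap, and the difference was 0.34 under DMSO and 1.38 on the 10 µM arrays, but the limma line effect of 0.86 ± 0.25 (SE) missed the threshold (adjusted p = 0.057). With the Twist or the control DMSO array left out it was 1.12. The DMSO array that stays then has its own treatment term, so both refits are the same contrast of the 5 µM and 10 µM arrays. DUSP4, a nuclear phosphatase of ERK and JNK, had 11.33, 10.59 and 10.28 in the Twist line and 10.52, 10.61 and 10.40 in the control line. Its lines were apart only under DMSO, by 0.81, and the line effect was 0.22 ± 0.26 (SE, adjusted p = 0.601 in limma). The 3 probe sets of DUSP4 gave like differences under DMSO, from 0.70 to 0.81. At 5 µM and 10 µM the differences were 1.49 and 1.72 on 204015_s_at and 0.32 and -0.01 on 204014_at. The line effect passed on 204015_s_at (1.30 ± 0.26, SE, adjusted p = 0.0173, limma) and not on 204014_at (0.35 ± 0.23, SE, adjusted p = 0.317). DUSP2, known mainly from activated lymphocytes, was above the floor only on the control-line DMSO and 5 µM arrays, at 3.86 and 3.72, and below it on all 3 Twist-line arrays.

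Of the cytoplasmic enzymes, DUSP6 was bright in both lines. Its brightest probe set, 208891_at, had 12.32, 11.60 and 11.67 in the Twist line and 12.47, 12.55 and 12.88 in the control line, and 208892_s_at ran close to it. These arrays did not overlap between the lines, but the DMSO arrays differed by only -0.15, and the line effect of -0.77 ± 0.26 (SE) missed the threshold in limma (adjusted p = 0.0815). With the Twist or the control DMSO array left out it was -1.08, in both cases the same contrast of the 5 µM and 10 µM arrays. The remaining probe set, 208893_s_at, showed another pattern, with 8.46, 9.55 and 9.60 in the Twist line and 11.43, 11.18 and 11.09 in the control line. Its line difference was -2.97 under DMSO and -1.63 and -1.49 on the 5 µM and 10 µM arrays. In a limma fit over 24611 probe sets its line effect was -2.03 ± 0.34 (SE, adjusted p = 0.00868), in a fit that called 27.6% of all probe sets. In that fit 208892_s_at also passed as lower (-0.85 ± 0.24, SE, adjusted p = 0.0467, limma), while 208891_at did not (adjusted p = 0.0817).

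DUSP7, which also prefers ERK, had 11.76, 11.75 and 11.52 in the Twist line and 12.29, 12.35 and 12.17 in the control line. Every Twist-line array was below every control-line array, and the line effect of -0.60 ± 0.17 (SE) lay close to the threshold (adjusted p = 0.0514 in limma). With the Twist or the control DMSO array left out it was -0.63, in both cases the same contrast of the 5 µM and 10 µM arrays. The dim probe set 214793_at of DUSP7 lay below the floor in the Twist line under DMSO and at 10 µM. Its line effect of -0.41 ± 0.10 (SE) passed in the fit over 24611 probe sets (adjusted p = 0.0264, limma), in part set by the floor. DUSP9, an ERK phosphatase known for its need in the mouse placenta, had 5.07, 4.85 and 4.68 in the control line and lay below the floor on all 3 Twist-line arrays. Its line difference under DMSO was therefore at most -1.35 log2 units, at least 2.56-fold lower in the Twist line. The limma fit called it lower (adjusted p = 0.00163), but with every Twist-line value set to the floor. It passed the filter through its control-line arrays alone, so the floor sets part of that p-value and the call is no separate support.

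The JNK and p38 enzymes went different ways. DUSP10, which acts on p38 and JNK, had 8.21, 8.28 and 8.27 in the Twist line and 9.98, 10.05 and 9.34 in the control line. Its Twist-line arrays were flat and all lower, with differences of -1.77 under DMSO (3.41-fold) and -1.07 at 10 µM, and with a line effect of -1.54 ± 0.24 (SE, adjusted p = 0.00751 in limma). With no filter on low signals, over 19775 genes, it lay just outside the threshold (adjusted p = 0.0528). Its other probe set, 215501_s_at, had 5.40, 6.29 and 6.97 in the Twist line and 7.47, 7.16 and 6.95 in the control line, so that a difference of -2.07 under DMSO stood beside one of 0.02 at 10 µM. The line effect of that probe set was -0.98 ± 0.41 (SE, adjusted p = 0.146 in limma).

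DUSP8, an enzyme of the same class known from brain and heart, had weak signals of 4.50, 4.78 and 4.59 in the Twist line. In the control line its signals were 3.30, below the floor, 3.73 and 4.14. The lines did not overlap, and the line effect was 0.76 ± 0.15 (SE, adjusted p = 0.0149 in limma), but the difference was at least 0.79 under DMSO and only 0.45 on the 10 µM arrays. Without the control-line 5 µM array its line effect was 0.62 and no longer passed (adjusted p = 0.0523), nor did it with the median over probe sets (0.15, adjusted p = 0.278). DUSP16, which prefers JNK, had 5.19, 6.43 and 6.81 in the Twist line and 7.25, 7.02 and 6.98 in the control line. Its difference was -2.06 under DMSO, 4.17-fold lower in the Twist line, and -0.60 and -0.17 on the 5 µM and 10 µM arrays. With the floor at the 65th percentile the DMSO difference was -1.22. Probe set 224336_s_at gave -2.29 under DMSO, and the dim 1555399_a_at gave -0.06. The line effect averaged over treatments, -0.94 ± 0.39 (SE), did not pass in limma (adjusted p = 0.143).

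The bases before the transcription start of 4 members are shown because DUSP1 and DUSP8 were the members called higher in the Twist line and DUSP10 and DUSP16 were past 2-fold lower there under DMSO with both arrays above the floor. They are the 250 bases upstream of the RefSeq start in GRCh38.p14, on the gene's strand, which is minus for all 4 (the start used for DUSP8 lies inside its annotated locus, which ends at base 1572848): chr5:172771196-172771445 for DUSP1, chr11:1572272-1572521 for DUSP8, chr1:221742090-221742339 for DUSP10 and chr12:12562864-12563113 for DUSP16. Capitals mark TGACG on either strand, the core of the cyclic AMP response element (CRE), bound by CREB and ATF family factors.
DUSP1: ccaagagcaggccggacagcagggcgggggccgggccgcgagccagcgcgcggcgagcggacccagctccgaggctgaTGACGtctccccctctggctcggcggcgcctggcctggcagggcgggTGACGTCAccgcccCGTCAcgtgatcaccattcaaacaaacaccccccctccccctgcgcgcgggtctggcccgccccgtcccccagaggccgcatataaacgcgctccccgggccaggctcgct
DUSP8: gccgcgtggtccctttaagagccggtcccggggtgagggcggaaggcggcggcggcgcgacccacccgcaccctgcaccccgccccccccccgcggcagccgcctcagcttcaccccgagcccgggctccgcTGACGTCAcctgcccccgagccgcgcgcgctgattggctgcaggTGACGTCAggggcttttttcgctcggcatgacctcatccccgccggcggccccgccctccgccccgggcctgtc
DUSP10: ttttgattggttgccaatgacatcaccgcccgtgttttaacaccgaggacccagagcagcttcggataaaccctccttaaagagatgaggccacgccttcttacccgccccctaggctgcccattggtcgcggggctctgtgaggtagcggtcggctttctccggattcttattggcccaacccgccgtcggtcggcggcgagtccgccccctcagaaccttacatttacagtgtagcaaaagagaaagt
DUSP16: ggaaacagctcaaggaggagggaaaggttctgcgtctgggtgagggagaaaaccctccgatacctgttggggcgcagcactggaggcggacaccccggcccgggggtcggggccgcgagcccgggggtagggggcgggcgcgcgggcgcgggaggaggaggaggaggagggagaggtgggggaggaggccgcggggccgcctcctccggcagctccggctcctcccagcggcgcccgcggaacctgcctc
Of 8 members matched in the RefSeq table, which did not include DUSP4 and DUSP5, the full palindrome TGACGTCA occurred in 2. It began at base -125 of DUSP1 and at bases -118 and -74 of DUSP8, counted back from -1 next to the start, and it was present in 1.77% of 27305 promoters of the same length. TGACG, which overlaps it, occurred in the same 2 members and in 21.7% of promoters. TATAAA was found in DUSP1 alone of the 8 (11.1% of promoters), CCAAT in 3, with 4 copies in DUSP10 (33.0%), and GGGCGG in 7 (42.3%). No match in these 8 windows was found on either strand for CAGATG, an E-box bound by TWIST1 (12.2% of promoters), TGANTCA of AP-1 (6.6%), TGATGNAA of ATF4 and C/EBP (3.19%), CCGGAAG of ETS factors (8.82%) or GGGANTTCC of NF-kB (1.6%). A match of letters is a description and not a binding site.

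The series title describes Cmp302 as selective for cells after EMT, and the treated arrays show the phosphatases with it in either line. In the Twist line DUSP16 was the member furthest above DMSO and DUSP4 the one furthest below. At 5 µM 1 of 8 measured members was past 2-fold higher (DUSP16) and 0 were lower, where 4.26% and 5.01% of 11868 genes were. At 10 µM 1 was higher (DUSP16) and 1 lower (DUSP4), where 8.04% and 8.46% of 11931 genes were. The medians of the members were 0.17 and 0.08 log2 units, against 0.0 and -0.01 over all genes. A count of 0 or 1 of 8 is near these shares.

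In the fit with line, level and their interaction, limma called the trend of DUSP16 higher and that of DUSP4 lower in the Twist line, where 10.8% of 12478 genes rose and 11.4% fell. Both calls were lost, and the fit called 0 genes in all, when any array other than Twist 5 µM was left out, which leaves 1 residual degree of freedom. Leaving out a control-line array changes only the error of the fit. The Twist-line trend is fitted to the Twist-line arrays alone, so the 2 estimates, 0.81 and -0.52, could not move. Without the Twist DMSO array they were 0.38 (adjusted p = 0.395) and -0.31 (adjusted p = 0.472), and without Twist 10 µM 1.24 (adjusted p = 0.0579) and -0.74 (adjusted p = 0.0859). In the control line no member was past 2-fold at 5 µM, where 0.0585% of genes were higher and 0.0668% lower, or at 10 µM, where 0.2% and 0.259% were. Control-line medians were 0.04 and -0.15. The limma trend in the control line called 0 of 10 members and 0.0% of genes. At an unadjusted p under 0.05 it held 1 member (DUSP9) and 937 genes, and without the trend in eBayes it again called 0. The difference of trends between the lines called 0 members and 1.52% of genes, with 4 members (DUSP4, DUSP5, DUSP6 and DUSP16) and 4928 of 12478 genes at an unadjusted p under 0.05, a like share.

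DUSP16 signals in the Twist line were 5.19 under DMSO, 6.43 at 5 µM and 6.81 at 10 µM, as given above. Both treated arrays were above DMSO, by 1.24 and 1.62 log2 units (2.36-fold and 3.08-fold), and the array at 10 µM approached the control line. The limma trend was 0.81 ± 0.14 log2 units per level (SE, adjusted p = 0.0228), against -0.13 ± 0.14 in the control line (adjusted p = 0.743). With the floor at the 65th percentile the changes were 0.40 and 0.79, under 2-fold, and the Twist-line trend was 0.39 (adjusted p = 0.027). The difference of the trends, 0.94 ± 0.20 (SE), missed the threshold (adjusted p = 0.0543, limma). Probe set 224336_s_at gave 4.19, 6.28 and 6.22 in the Twist line and 6.48, 6.21 and 5.99 in the control line. Its change of 2.09 at 5 µM was not exceeded at 10 µM, and its Twist-line trend passed in the probe set fit (1.02 ± 0.27, SE, adjusted p = 0.0498, limma), where 21.4% of probe sets passed. The dim probe set 1555399_a_at changed by 0.21 and 0.40.

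The changes of DUSP16 with Cmp302 in the Twist line and its line difference under DMSO share the Twist DMSO array. The step that does not use that array, from 5 µM to 10 µM in the Twist line, was 0.38 log2 units. On the control-line 10 µM array, whose 3' to middle contrast of 0.84 was near the 0.95 of the Twist DMSO array, DUSP16 differed from control DMSO by -0.26. The part of RNA quality in the change was not tested.

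DUSP4 had 11.33, 10.59 and 10.28 on the Twist-line arrays, each level below the one before. It differed from DMSO by -0.74 at 5 µM and by -1.05 at 10 µM (2.07-fold), and its limma trend was -0.52 ± 0.11 per level (SE, adjusted p = 0.0304). Probe set 204014_at went the same way with 10.88, 10.60 and 10.17 and also passed (-0.35 ± 0.09, SE, adjusted p = 0.0469, limma). Probe set 204015_s_at went the other way, with 10.06, 10.81 and 10.75 in the Twist line and 9.36, 9.31 and 9.03 in the control line. Its changes of 0.75 and 0.69 did not pass as a trend (0.35 ± 0.14, SE, adjusted p = 0.112, limma), whereas its line effect did (1.30 ± 0.26, SE, adjusted p = 0.0173). The direction of DUSP4 therefore depended on which probe set was read.

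**Figure D2:**
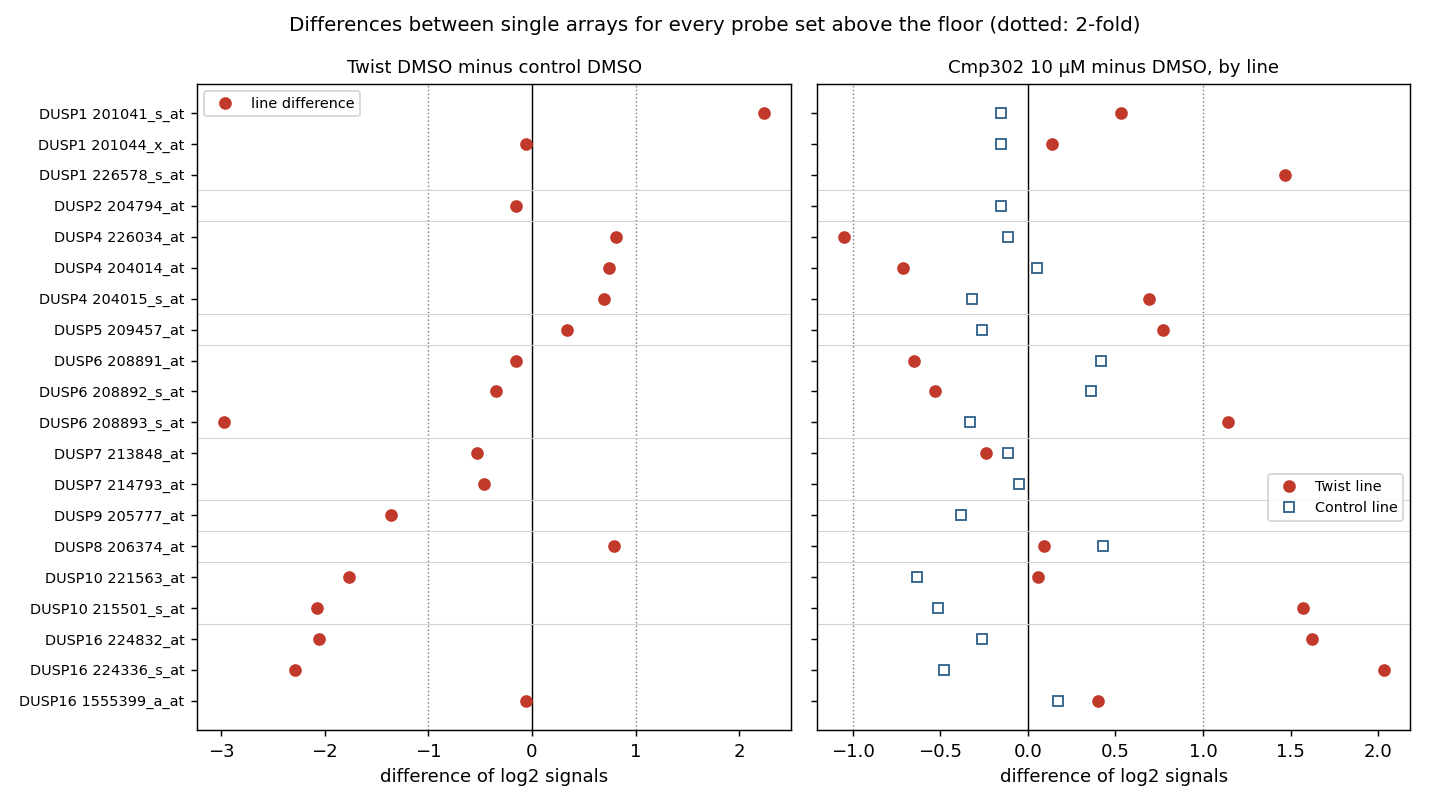
Difference of log2 signals (horizontal axis) for each of the 20 member probe sets above the floor on any array (rows), for the Twist DMSO array minus the control DMSO array at left and for Cmp302 10 µM minus DMSO at right, with the Twist line as red circles, the control line as open blue squares, 2-fold as dotted lines and no point where both arrays lay below the floor. Probe sets of DUSP4 and of DUSP6 lie on opposite sides of 0 in the Twist line at 10 µM, at -1.05 and 0.69 for DUSP4 and at -0.65 and 1.14 for DUSP6.

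DUSP6 was split in the same manner. At 5 µM and 10 µM its brightest probe set differed from DMSO by -0.72 and -0.65 in the Twist line and by 0.08 and 0.42 in the control line. Trends of -0.32 ± 0.13 in the Twist line (SE, adjusted p = 0.107) and 0.21 ± 0.13 in the control line (adjusted p = 0.623) did not pass in limma, nor did their difference of -0.53 ± 0.18 (adjusted p = 0.0871). Probe set 208893_s_at rose in the Twist line instead, by 1.09 at 5 µM and 1.14 at 10 µM, with a limma trend of 0.57 ± 0.15 (SE, adjusted p = 0.0494). Where these probe sets lie along the transcript was not analysed here.

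DUSP10 gave a further case. Its brightest probe set stood within 0.07 of DMSO at both levels in the Twist line, with a trend of 0.03 ± 0.14 (SE, adjusted p = 0.928, limma), while in the control line its change at 10 µM was -0.63. Probe set 215501_s_at differed from DMSO by 0.89 and 1.57 in the Twist line and by -0.31 and -0.51 in the control line. That was the one member probe set of 20 tested for which limma called a difference of trends (1.04 ± 0.15, SE, adjusted p = 0.0494), in a fit that called 1.19% of all probe sets. Its Twist-line trend passed as well (0.79 ± 0.11, SE, adjusted p = 0.0172).

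Of the other nuclear enzymes, DUSP5 and DUSP1 had higher signals on the treated Twist-line arrays, without a called trend on the brightest probe set. DUSP5 was 0.61 higher at 5 µM and 0.77 higher at 10 µM (1.71-fold), and its control-line changes were 0.09 and -0.26. Its trend in the Twist line, 0.39 ± 0.11 (SE), lay just outside the threshold (adjusted p = 0.0561, limma), and the difference of trends was 0.52 ± 0.16 (SE, adjusted p = 0.0732). DUSP1 was 0.56 and 0.53 higher on its brightest probe set (trend 0.27 ± 0.13, SE, adjusted p = 0.17, limma). On 226578_s_at, with the DMSO array below the floor, it was at least 1.24 and 1.47 higher, and limma called its trend (0.73 ± 0.13, SE, adjusted p = 0.0251). That probe set passed the filter through its 2 treated Twist-line arrays alone, with all other values set to the floor. The floor thus sets part of that p-value, and the call is no separate support.

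DUSP7 differed from DMSO by -0.01 and -0.24 in the Twist line and by 0.07 and -0.11 in the control line. DUSP8 differed by 0.28 and 0.09 in the Twist line and by at least 0.02 and 0.43 in the control line, where its DMSO array lay below the floor. DUSP2 and DUSP9 were below the floor on all Twist-line arrays and have no change there. In the control line DUSP9 differed by -0.21 and -0.38.

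Over the 20 probe sets tested, the Twist-line trend rose for 5 (226578_s_at of DUSP1, 208893_s_at of DUSP6, 215501_s_at of DUSP10, and 224832_at and 224336_s_at of DUSP16) and fell for 2 (226034_at and 204014_at of DUSP4), where 21.4% of all 24611 probe sets were called in either direction. Probe set 226578_s_at entered that fit through the 2 treated Twist-line arrays alone, so its call is no separate support. All the called trends use the Twist DMSO array, the one with the highest 3' to middle contrast. The part of RNA quality in these changes was not tested.

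**Figure D3:**
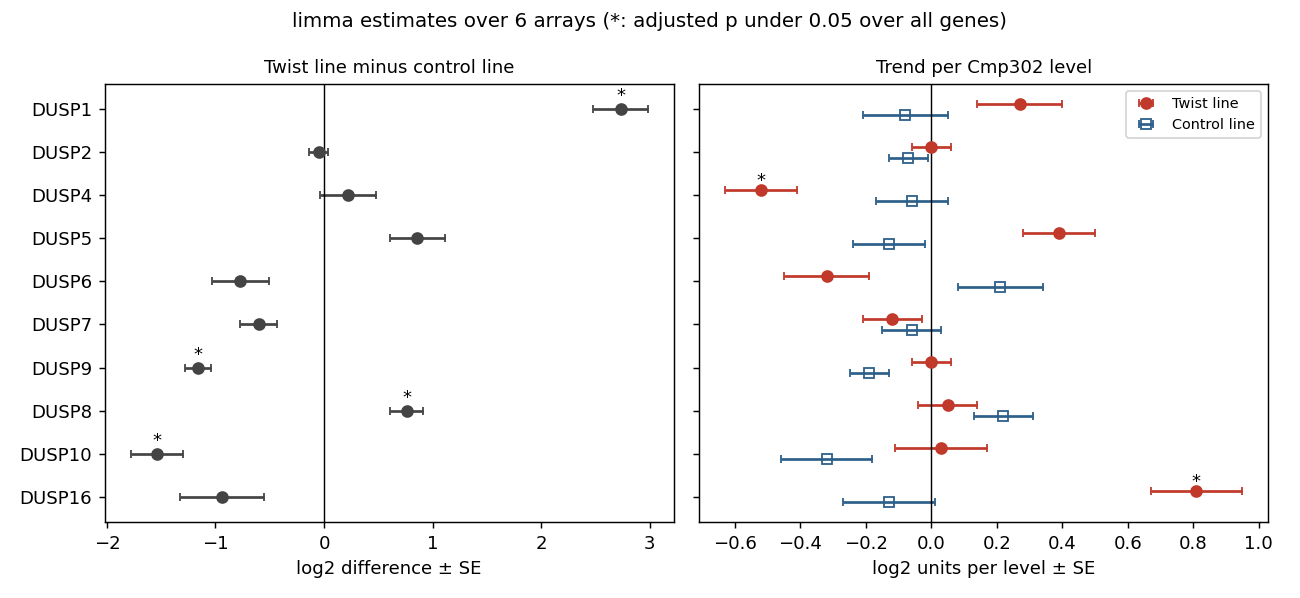
limma estimates with SE over 6 arrays for each MAP kinase phosphatase (rows), with the difference of the Twist line from the control line at left in log2 units and the trend per Cmp302 level at right, the Twist line as red circles, the control line as open blue squares and stars for an adjusted p under 0.05 over all genes. DUSP1 has the highest line difference (2.73) and DUSP10 the lowest (-1.54), and DUSP16 (0.81) and DUSP4 (-0.52) are the members with a called trend, both in the Twist line.

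For members past 2-fold in any comparison, the 3 genes with the closest profile were found by the Euclidean distance of floored signals centred on their mean over the 6 arrays. DUSP1 was closest to ABLIM3 (0.20 log2 units), CLU, encoding clusterin (0.26), and TMEM255B (0.27). DUSP4 was closest to SMARCA1, encoding a chromatin remodelling ATPase (0.09), IFT81, encoding a protein of intraflagellar transport (0.11), and LRRC8C (0.14). DUSP16 was closest to TRAF4 (0.29), CES2 (0.31) and ZNF783 (0.36). DUSP9 was closest to BMP6 (0.08), FAM83F (0.10) and PPP4R4 (0.11), all at the floor in the Twist line. DUSP10 was closest to the polarity gene CRB3 (0.16), PTPRU (0.19) and the protease gene MMP7 (0.24), which likewise lay at the floor there, so that the floor sets part of the likeness.

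Genes around these phosphatases were read from 8 lists of the MAP kinase pathway. Among EGF receptor ligands, with 5 tested of 7 listed, 1 rose in the Twist-line trend and 0 fell. The shares over all 12478 tested genes were 10.8% and 11.4%. HBEGF, a membrane-bound ligand of the EGF receptor, had 6.38, 7.93 and 8.77 in the Twist line under DMSO, 5 µM and 10 µM, and 11.22, 10.94 and 10.91 in the control line. It rose with the level (1.20 ± 0.13, SE, adjusted p = 0.0108, limma) while staying below the control line on every array, and its trends differed between the lines (1.35 ± 0.19, SE, adjusted p = 0.0439). NRG1 and EREG, also ligands of EGF family receptors, were 0.50 and 0.41 above DMSO at 10 µM, without a called trend. Of the 3 tested receptors, EGFR rose in the Twist line, with 9.81, 10.95 and 11.11 at the 3 levels (trend 0.65 ± 0.15, SE, adjusted p = 0.0345, limma). ERBB2 differed by -0.78 at 10 µM without passing. ERBB3 differed from the control line by -5.51 under DMSO (line effect -5.67 ± 0.18, SE, adjusted p = 2.74e-05, limma). Its DMSO signal of 3.82 on the Twist side was barely above the floor, and both treated Twist-line arrays were below it. The floor thus sets part of that estimate, its SE and its p-value.

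Kinase genes moved in both directions. Of 8 tested ERK cascade genes, 2 rose and 1 fell in the Twist line, and 0 were past 2-fold at either level. Over all genes 10.8% rose and 11.4% fell. Past 2-fold were 4.26% higher and 5.01% lower at 5 µM, and 8.04% and 8.46% at 10 µM. The called genes were MAP2K5, a kinase of the ERK5 branch (0.86 at 10 µM), the scaffold gene KSR1 (0.70) and MAP2K1, encoding MEK1 (-0.86), while MAPK7, encoding ERK5, differed by 0.22. Of 11 tested JNK and p38 cascade genes, 0 rose and 2 fell, the upstream kinase genes MAP3K1 (-0.88) and MAP2K6 (-0.89, near the floor at 3.86). MAPK8, encoding JNK1, and MAP3K7 differed by 0.44 and 0.19.

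Other feedback inhibitors of the pathway were SPRY, SPRED and related genes. Of 8 tested, 0 rose and 3 fell in the Twist-line trend, where 10.8% and 11.4% of all genes did. At 10 µM 1 was past 2-fold higher and 3 lower, where 8.04% and 8.46% of all genes were. SPRED1, an inhibitor of RAS activation, had 12.11, 10.92 and 10.72 in the Twist line and 10.92, 11.12 and 11.27 in the control line. It was above the control line under DMSO and below it with Cmp302, and its Twist-line trend fell by 0.69 ± 0.15 per level (SE, adjusted p = 0.0307, limma). SPRED2 fell too, with -1.26 at 10 µM (adjusted p = 0.0303), as did SPRY1 with -1.08 (adjusted p = 0.0376). SPRY4 was 1.03 higher but its trend lay just outside the threshold (adjusted p = 0.0512, limma), and SPRED3 differed by 0.11. LRIG1, which restrains EGF family receptors, was 6.23 ± 0.20 (SE, adjusted p = 2.7e-05, limma) log2 units higher in the Twist line over the treatments.

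Of 10 transcripts induced by ERK signalling, 3 rose (EGR1, IER3 and MYC) and 1 fell (CCND1, encoding cyclin D1) in the Twist-line trend. Of all genes 10.8% rose and 11.4% fell. The median change at 10 µM was 0.62 over 9 measured, against -0.01 over all genes. At 10 µM MYC differed from DMSO by 1.37 in the Twist line and by -1.48 in the control line, and its difference of trends was just outside the threshold (1.43 ± 0.23, SE, adjusted p = 0.0506, limma). PHLDA1 and ETV4 were 0.96 and 0.36 higher, without a called trend. FOS lay below the floor on all Twist-line arrays and had 6.44, 5.76 and 5.13 in the control line, so that its called difference of trends (0.65 ± 0.10, SE, adjusted p = 0.0469, limma) rests on the control-line values alone. PTPRR, the 1 tyrosine phosphatase of MAP kinases above the floor of 3 listed, differed from the control line by at most -1.30 in the Twist line under DMSO, where it lay below the floor.

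Atypical dual-specificity phosphatases, which lack the kinase-binding domain of the MAP kinase phosphatases, moved in both directions. Of 10 tested, 2 rose (DUSP12 and DUSP28) and 2 fell (DUSP14 and STYX, a catalytically inactive member) in the Twist-line trend. The shares over all genes were 10.8% and 11.4%. At 10 µM the changes were 1.11 for DUSP12 and 0.81 for DUSP18, which did not pass, and -1.19 for STYX and -0.97 for DUSP14. The median change was 0.32, against 0.08 for the MAP kinase phosphatases and -0.01 for all genes.

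**Figure D4:**
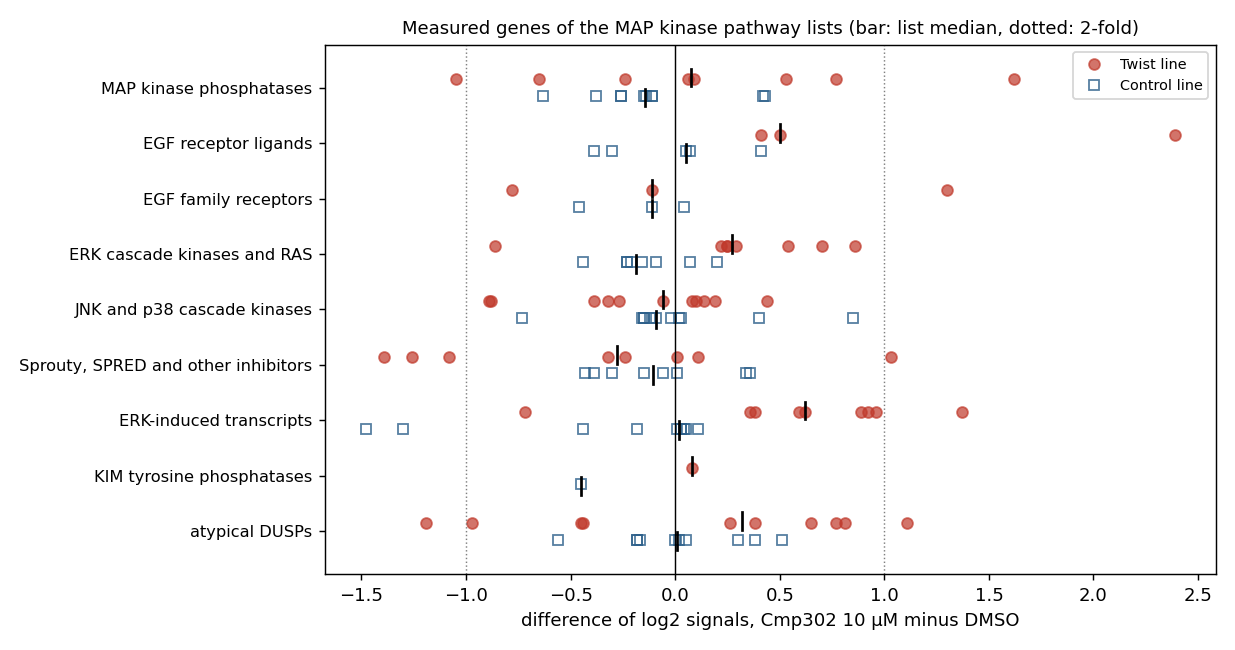
Difference of log2 signals between Cmp302 10 µM and DMSO (horizontal axis) for the measured genes of each MAP kinase pathway list (rows), with the Twist line as red circles, the control line as open blue squares, list medians as black bars and 2-fold as dotted lines. Of the MAP kinase phosphatases, DUSP16 lies at 1.62 and DUSP4 at -1.05 in the Twist line, and HBEGF, at 2.39, is the highest gene shown.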

How the data were processed

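RNA of 6 samples was hybridised to Affymetrix Human Genome U133 Plus 2.0 arrays, 1 per group. No unit is named in the labels, and the range of the deposited values is that of log2 signals. The software was GCOS 1.2, per the submitters' processing notes. The background correction, summarisation and normalization are not given in the sources used here. After leaving out 62 control probe sets, each array was shifted to a median log2 ratio of 0 over the brighter probe sets (offsets -0.03 to 0.01), and signals under 3.71 were set to that floor. Probe sets were named from GEO's platform annotation, with symbols updated through RefSeq, and those with several symbols (1801) or none (11721) were not used. A gene was its brightest probe set. Differences of 2-fold or more between arrays count as higher or lower where at least 1 array lies above the floor. Tests used limma 3.58.1 in R 4.3.3 (eBayes with trend, Benjamini-Hochberg over the 12478 genes with 2 or more arrays above the floor) and were tested on simulated data. The p-values set a line effect or trend against departures from an additive or straight-line pattern over these arrays, not against replicate spread. Named genes were the members, the 2 highest and 2 lowest of each list at 10 µM in the Twist line, genes called in the difference of trends and the closest profiles. Genes named beyond that rule (SPRY1, LRIG1, EGR1, IER3, DUSP28) were picked with their values in view, as were the printed promoters. The members, lists and motifs were chosen with earlier results of these data known. Alternatives were the deposited scaling, quantile normalization, other floors, the median over probe sets, leaving out suffixed probe sets, no filter, no eBayes trend, levels coded 0, 1 and 1, each other probe set, and leaving out each array.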

Additional observations from a re-analysis of the deposited data

Results flagged for a closer look

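Among the members, their probe sets and the listed genes, the interaction test of limma called 3 items. This test compares the trends with Cmp302 between the lines. Over all features it called 1.52% of 12478 genes and 1.19% of 24611 probe sets. Probe set 215501_s_at of DUSP10 had a trend 1.04 ± 0.15 log2 units per level higher in the Twist line than in the control line (SE, adjusted p = 0.0494), with both treated Twist-line arrays above DMSO and both treated control-line arrays below it. The brighter DUSP10 probe set gave 0.35 ± 0.19 (adjusted p = 0.23). HBEGF had a difference of 1.35 ± 0.19 (SE, adjusted p = 0.0439). FOS had one of 0.65 ± 0.10 (SE, adjusted p = 0.0469) and lay below the floor on every Twist-line array. No Twist-line response of FOS was thus measured, and its call cannot show a difference between the lines. Its control-line trend did not pass (adjusted p = 0.621, limma). With any 1 array other than Twist 5 µM left out, limma called a difference of trends for 0 genes.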

How the results depend on the processing

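Deposited scaling and quantile normalization moved no count of members past 2-fold or called in limma by more than 1.5 times. With the deposited scaling DUSP7 was gained as lower for line (-0.61, adjusted p = 0.048, limma), and so it was without the eBayes trend (-0.60, adjusted p = 0.0457). With the floor at the 35th percentile 2 members were past 2-fold higher under DMSO in the Twist line. With it at the 65th percentile 0 were higher at 5 µM or 10 µM, and the line effect called 1 higher and 1 lower. With the median over probe sets, 0 members were higher under DMSO, where DUSP1 changed sign to -0.06, its value on 201044_x_at. That setting gave 2 higher and 0 lower at 10 µM, 1 higher for line, and 3 higher and 0 lower for the Twist trend. Without suffixed probe sets, 0 members were higher under DMSO and 1 for line, since DUSP1 has no other probe set. With no filter on low signals, 1 was higher for line, DUSP8 (adjusted p = 0.0966) and DUSP10 (0.0528) were lost and DUSP7 was gained (0.0411), and 0 in either direction for the Twist trend. With levels coded 0, 1 and 1, the Twist trend called 2 higher and 2 lower and the difference of trends 1 higher (DUSP16, adjusted p = 0.0231) and 1 lower (DUSP6, adjusted p = 0.037). Leaving out 1 array at a time, the line effect called 1 to 3 members higher and 2 to 4 lower, the Twist trend 0 to 1 higher and 0 to 1 lower, and the difference of trends 0 to 1 higher. The line effect called 1 higher without control 5 µM, where DUSP8 was lost, and 3 higher and 4 lower without either DMSO array, where DUSP5, DUSP6 and DUSP7 were added, and the difference of trends called DUSP16 without Twist 5 µM (adjusted p = 0.0473). Over all genes, the difference of trends called 91 higher and 99 lower, against 247 and 221 with the lower floor, 21 and 22 with the higher, 19 and 19 without the eBayes trend, 6 and 4 with no filter, 1554 and 1739 with levels coded 0, 1 and 1, 1117 and 1328 without Twist 5 µM, and 0 without each of the other 5 arrays. The Twist trend called 1352 and 1421 genes, against 8 and 8 with no filter and 1934 and 2230 with levels coded 0, 1 and 1. The control-line trend called 0, against 3 and 11 with no filter. The line effect called 1705 and 1854, against 833 and 1242 with no filter, 1124 and 1266 with the higher floor, 3585 and 3704 without control DMSO and 3584 and 3702 without Twist DMSO. Read by another probe set, the sign turned for DUSP4 (204015_s_at, 0.69 at 10 µM, trend 0.35) and DUSP6 (208893_s_at, 1.09 at 5 µM and 1.14 at 10 µM, trend 0.57). The cause of these changes was not tested. No paired analysis was possible because each group holds 1 array and no replicate numbers pair the samples, although the line effect sets the lines against each other within treatments.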
